A study of Mus musculus with 30 samples.

Results

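The 10 genes described here encode inducible and constitutive heat shock proteins and their cochaperones in the small bowel *muscularis externa* (*ME*) of mice. They were the inducible HSP70 genes *Hspa1a* and *Hspa1b*, the constitutive HSP70 *Hspa8*, the HSP70 cochaperones *Dnajb1*, *Hsph1* and *Bag3*, the cytosolic HSP90 *Hsp90aa1*, the small heat shock protein *Hspb1*, and the mitochondrial chaperonin pair *Hspd1* and *Hspe1*. They were chosen by symbol, and all 10 were present in each of the 5 count tables, among 24601 genes listed for total *ME* RNA and 22119 to 22704 genes for *RiboTag* RNA.

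The study asked how enteric glia respond in post-operative ileus, a loss of gut movement after abdominal surgery. Mice underwent intestinal manipulation (IM), in which the exposed small bowel was rolled with moist cotton swabs, and the *ME* was taken after 3 h (IM3h), 24 h (IM24h) or 72 h (IM72h). The *RiboTag* allele (B6N.129 Rpl22tm1.1Psam/J) adds an HA epitope to RPL22, a protein of the large ribosomal subunit, wherever Cre is active, and mRNA on these ribosomes is recovered with an antibody to HA. All *RiboTag* pulldown libraries came from crosses with Tg(Sox10-icre/ERT2)388Wdr, a *Sox10*-driven Cre that needs tamoxifen and marks glia. Total *ME* RNA, which holds all cell types, came from the same cross at IM24h and IM72h, but for naïve mice and IM3h the labels name a cross with Tg73.12Mvs, a *Gfap*-driven Cre, so that in total *ME* RNA the later time points cannot be told apart from the mouse line, nor can fraction and line in the difference between fractions at IM3h. The tables held 3 naïve, 4 IM3h, 4 IM24h and 4 IM72h *RiboTag* libraries and 3 naïve, 3 IM3h, 4 IM24h and 4 IM72h libraries of total *ME* RNA. Operated adult male mice had also received isoflurane, tramadol, an abdominal incision and warming during surgery, and no sham-operated libraries were analysed here, so that effects of manipulation and of the remaining procedure cannot be told apart.

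Heat shock proteins are molecular chaperones, which bind unfolded or partly folded proteins and keep them from aggregating. HSP70 holds and releases its clients in a cycle driven by ATP, in which J-domain proteins such as DNAJB1 deliver the client and start hydrolysis, and exchange factors such as HSP110 (*Hsph1*) and BAG3 reset the cycle. HSP90 acts later in folding, small heat shock proteins hold unfolded clients without ATP, and HSP60 with HSP10 encloses proteins in a chamber within mitochondria. Many of these genes are switched on together when unfolded proteins accumulate, by heat shock factor 1, which binds heat shock elements made of repeated GAA and TTC units, and in muscle BAG3 together with HSP70 helps to clear structural proteins damaged by mechanical load.

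The promoters of 4 members are shown because they carry the 2 kinds of heat shock element found among the members and belong to genes whose changes are described in detail below. Each runs from 250 bases before to 50 bases after an annotated start, 5′ to 3′ on the strand of the gene, from RefSeq (GRCm38.p6), and capitals mark each match of the letters GAANNTTC (N is any base), alone or extended to the longer elements GAANNTTCNNGAA and TTCNNGAANNTTC.
*Hspa1a*, chr17:34972107-34972406, minus strand: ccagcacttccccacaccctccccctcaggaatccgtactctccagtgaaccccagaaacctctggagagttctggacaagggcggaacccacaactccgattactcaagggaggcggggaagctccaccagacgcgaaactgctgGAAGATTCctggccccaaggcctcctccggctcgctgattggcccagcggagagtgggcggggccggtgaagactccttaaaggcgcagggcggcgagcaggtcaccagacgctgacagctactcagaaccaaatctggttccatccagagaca
*Hsph1*, chr5:149636266-149636565, minus strand: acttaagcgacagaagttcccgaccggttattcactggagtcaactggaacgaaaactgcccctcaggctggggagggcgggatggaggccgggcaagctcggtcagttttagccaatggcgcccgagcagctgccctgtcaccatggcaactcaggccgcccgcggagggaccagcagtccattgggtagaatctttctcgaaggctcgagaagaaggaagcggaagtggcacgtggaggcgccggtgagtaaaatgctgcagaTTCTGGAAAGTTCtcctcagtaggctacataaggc
*Hspe1*, chr1:55087898-55088197, plus strand: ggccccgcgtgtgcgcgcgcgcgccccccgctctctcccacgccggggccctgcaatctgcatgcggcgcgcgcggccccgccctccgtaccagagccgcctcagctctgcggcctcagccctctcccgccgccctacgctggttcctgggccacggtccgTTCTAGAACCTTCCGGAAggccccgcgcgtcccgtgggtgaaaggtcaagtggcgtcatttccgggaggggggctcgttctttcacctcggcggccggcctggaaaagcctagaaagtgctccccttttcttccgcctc
*Bag3*, chr7:128523333-128523632, plus strand: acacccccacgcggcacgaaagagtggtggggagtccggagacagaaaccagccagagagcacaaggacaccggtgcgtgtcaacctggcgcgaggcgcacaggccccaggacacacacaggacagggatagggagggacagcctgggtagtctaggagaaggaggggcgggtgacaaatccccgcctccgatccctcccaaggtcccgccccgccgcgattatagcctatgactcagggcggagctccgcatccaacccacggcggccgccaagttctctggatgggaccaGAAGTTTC

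Of the 10 genes, 8 had an entry in the promoter table, with 11 promoters in all, and *Hspa8* and *Hsp90aa1* had none. The longer element, searched on both strands, was found in 4 of the 11 promoters, which belong to *Hsph1*, *Hspd1* and *Hspe1*, and in 0.603% of all 32851 promoters of this length. The letters GAANNTTC, which read the same on both strands and are part of the longer element, were found in 8 of the 11 promoters, of every gene with an entry but *Dnajb1*, and in 7.86% of all promoters. The letters TATAAA on either strand were found in 0 of the 11 and in 13.6% of all promoters. The promoters of *Hspa1a* and *Hspa1b* were identical at 296 of 300 bases. *Hspd1* and *Hspe1* lie head to head, and a promoter of each held the same block, chr1:55088059-55088076. It lay 144 to 127 bases before one annotated start of *Hspd1* and 89 to 72 bases before that of *Hspe1*. The promoter of the other annotated start of *Hspd1*, chr1:55088194-55088493, did not include the block and held 0 matches of either element. A match describes letters in this window and was not tested as a bound site.

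Depth was 3010306 to 7899493 estimated counts for the *RiboTag* libraries and 6603170 to 12866062 for total *ME* RNA. The rRNA-derived entry AY036118 held 2.02% to 13.99% of counts in naïve and IM3h *RiboTag* libraries, 22.2% to 59.2% at IM24h and 58.0% to 80.1% at IM72h, so that the pulldown levels at IM24h and IM72h rest on fewer counts of mRNA. In total *ME* RNA it held 16.1% to 33.5% in naïve mice and 24.1% to 25.1% at IM3h, but 1.33% to 6.50% at IM24h and 2.34% to 3.69% at IM72h, a step that coincides with the change of mouse line. With rRNA genes left out, 2 calls of members were lost, those of *Hspe1* at IM3h in total *ME* RNA and of the *Hspd1* difference between fractions at IM72h. Levels are given in CPM, counts divided by a library size that TMM, a trimmed mean of ratios between libraries, had adjusted. In the pulldown, 8 glial markers summed to 1568 to 1910 CPM in naïve mice, against 125.1 to 149.6 CPM in total *ME* RNA. They summed to 1389 to 2899 CPM at IM3h, 804.7 to 964.7 CPM at IM24h and 162.5 to 1469 CPM at IM72h, where *Sox2* was at 0 in all 4 libraries. Smooth muscle markers, 8 genes such as *Myh11* and *Acta2*, were present in the pulldown as well, at 9668 to 14360 CPM in naïve mice and 3097 to 7228 CPM at IM3h. In total *ME* RNA they summed to 37830 to 42450 CPM in naïve mice, 29060 to 35110 CPM at IM3h, 5019 to 15460 CPM at IM24h and 22610 to 34560 CPM at IM72h. The 8 macrophage markers summed to 186.2 to 192.9 CPM in naïve *ME* and to 1154 to 1450 CPM at IM72h, and the 6 neutrophil markers to 0.846 to 1.08 CPM in naïve *ME*, 25.1 to 33.7 CPM at IM3h and 46.2 to 214.9 CPM at IM24h. Between naïve mice and IM3h, 6 fibroblast markers went from 2626 to 2762 CPM down to 1172 to 1389 CPM in total *ME* RNA and from 966.9 to 1227 CPM down to 360.7 to 511.7 CPM in the pulldown. The 6 mesothelial markers went from 135.9 to 168.8 CPM down to 15.8 to 64.02 CPM and from 110.3 to 288.1 CPM down to 10.7 to 72.99 CPM. In the pulldown, macrophage markers summed to 86.5 to 171.5 CPM in naïve mice and 221.1 to 476.1 CPM at IM72h, neutrophil markers to 1.23 to 3.16 CPM and 10.6 to 71.7 CPM, and smooth muscle markers to 1817 to 5274 CPM at IM24h and 2335 to 11600 CPM at IM72h. The part of these changes in tissue make-up in the results was not tested, and in bulk RNA fewer cells of a type and less RNA per cell cannot be told apart.

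At 3 h all 10 genes were called higher in total *ME* RNA, and 4 of them, *Bag3*, *Hsph1*, *Hspd1* and *Hsp90aa1*, were called higher in the glial pulldown. In the pulldown all 10 changes were above 0 (0.47 to 2.03), and only that of *Hspa1a* was called different from total *ME* RNA. The *ME* call of *Hspe1* was lost without most single libraries and with scaling to the library total (0.14, adjusted p = 0.594). The rise of *Hsp90aa1* in the pulldown was not called on its protein-coding transcripts alone (0.53, adjusted p = 0.344). A gene was called where its adjusted p from edgeR's quasi-likelihood test was under 0.05. In total *ME* RNA this call was made for 19.3% of all genes as a rise and 13.4% as a fall, and the median log2 fold change was 1.76 for the members and 0.00 for all genes tested. In the pulldown 8.86% of genes were called higher and 4.44% lower, and the medians were 1.05 for the members and -0.04 for all genes tested. At 24 h 1 member was called higher and 2 lower in total *ME* RNA (15.6% and 13.4% of all genes) and 0 in the pulldown (0.366% higher and 0.131% lower). With single libraries left out, 1 to 6 members were called in total *ME* RNA at 24 h. With scaling to the library total its 2 falls, of *Hsph1* and *Hspe1*, were at 0.043 and 0.021. At 72 h 3 members were called higher and 2 lower in total *ME* RNA (29.3% and 28.3% of all genes), and 1 higher and 1 lower in the pulldown (1.05% and 15.1%). *Hsp90aa1*, among the rises in both fractions, was at 0.07 in total *ME* RNA and -4.36 in the pulldown on coding transcripts, neither called. With scaling to the library total its pulldown value was -0.036. The pulldown fall, of *Hspa1a*, was not called without a filter on low counts. By library, all IM3h values lay above all naïve values for 10 members in total *ME* RNA and 5 in the pulldown, on the scale of each comparison, against 25.3% and 15.3% of all genes. For 0 members they lay below (22.7% and 14.3% of all genes). At IM24h 1 member lay wholly above and 2 wholly below naïve mice in total *ME* RNA (20.2% and 20.7% of all genes). In the pulldown 1 lay above and 1 below (6.97% and 14.2%). At IM72h it was 3 above and 2 below in total *ME* RNA (30% and 28.7%) and 0 above and 4 below in the pulldown (2.85% and 28.1%). The 3 comparisons of a fraction share its 3 naïve libraries. In the pulldown at 24 h, edgeR gave 2 members higher and 1 lower at an unadjusted p under 0.05 (7.14% and 6.03% of all genes). DESeq2 called 1 higher, *Hsp90aa1* (3.23% of all genes higher and 2.44% lower), as edgeR did without IM24h library 1 (2.22, adjusted p = 0.00709). Its coding transcript *Hsp90aa1-201* was lower there, at 78.35 to 112.4 CPM against 146.5 to 225.9 CPM in naïve mice. The 4 pulldown calls at IM3h were lost in 1 fit over all 4 pulldown groups. There the changes were 1.36 to 1.98 but the adjusted p was 0.652 to 0.9999, and 22 genes were called higher and 12 lower in place of 1422 and 712. The cause of this loss was not tested.

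**Figure D1:**
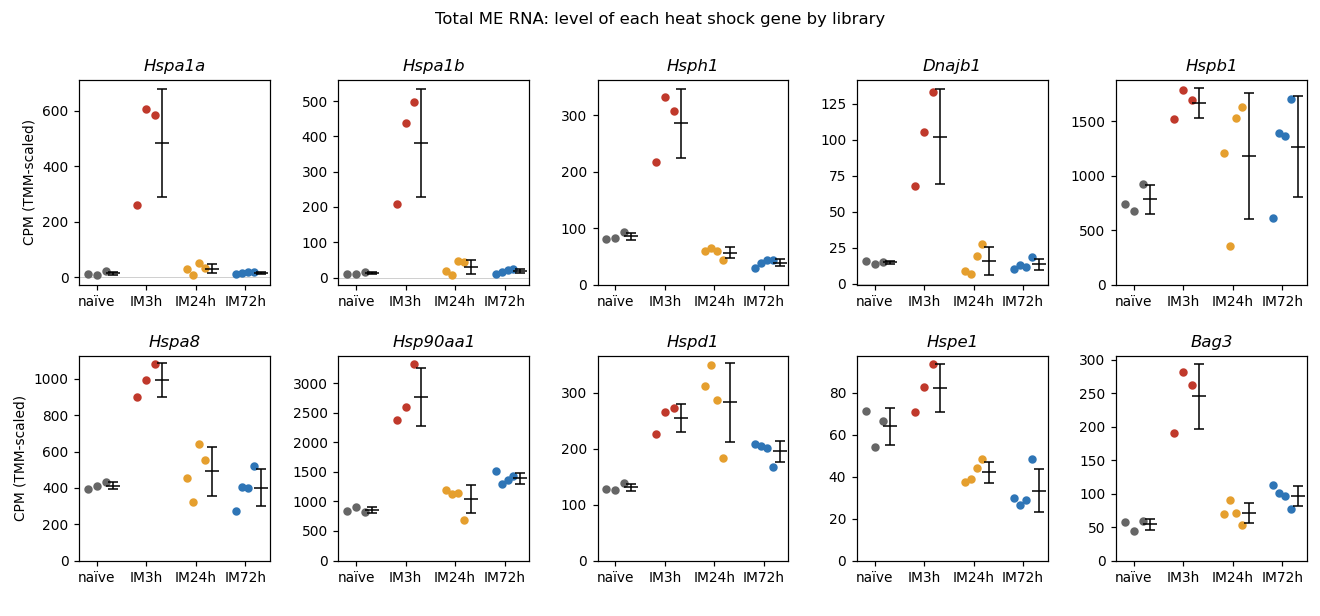
Level of each member in every library of total *ME* RNA, in CPM on a linear axis that starts at 0 and differs between panels, for naïve mice, IM3h, IM24h and IM72h. Points are libraries and bars with lines are the mean and SD of 3 or 4 libraries. *Hspa1a* stood at 260.4 to 606 CPM at IM3h and at 8.81 to 52.0 CPM in every other group.

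In the plot of *ME* levels by library, calls against naïve mice sort the members into 3 courses. *Hspa1a*, *Hspa1b*, *Dnajb1*, *Hspa8* and *Hspb1* were called higher at IM3h alone. *Hsp90aa1*, *Bag3* and *Hspd1* were also called higher at IM72h, and *Hspd1* at IM24h as well. *Hsph1* and *Hspe1* were called lower at IM24h and IM72h. In these later calls time and mouse line cannot be told apart, and some did not hold. *Hspa1a*, *Hspa1b* and *Hspb1* were called higher at IM24h without the lowest library of that group. With scaling to the library total, *Hsph1* and *Hspe1* were at 0.043 and 0.021 at IM24h, and *Hspe1* at -0.38 (not called) at IM72h. On coding transcripts *Hsp90aa1* at IM72h was at 0.07 and not called.

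*Hspa1a* and *Hspa1b* (chr17:34969190-34972156 and chr17:34956436-34959238, minus strand, mm10) encode nearly identical stress-induced HSP70 proteins, which are scarce in unstressed cells. *Hspa1a* stood in total *ME* RNA at 12.1, 8.81 and 21.3 CPM in the 3 naïve libraries and at 260.4, 606 and 585 CPM at IM3h. It was at 29.04, 9.89, 51.98 and 34.9 CPM at IM24h and 12.2, 14.4, 20.1 and 20.1 CPM at IM72h. The IM3h libraries were thus far above all others, IM24h ranged from within the naïve values to above them, and IM72h lay within the naïve range. The rise at IM3h was the largest of the members (log2 fold change 5.11 ± 0.384 SE, adjusted p = 7.95e-06), a ratio of mean levels of 34.4. *Hspa1b* followed the same course, with 11.2, 10.5 and 17.2 CPM in naïve mice and 209, 438 and 496 CPM at IM3h (log2 fold change 4.90 ± 0.331 SE, adjusted p = 4.08e-06). It then stood at 18.3, 6.79, 47.1 and 43.98 CPM and 11.3, 16.8, 21.5 and 25.1 CPM at IM24h and IM72h. From IM3h to IM24h both fell (-3.89 ± 0.477 SE, adjusted p = 0.000441 for *Hspa1a* and -3.67 ± 0.562 SE, adjusted p = 0.00132 for *Hspa1b*), and neither was called against naïve mice at IM24h or IM72h. Without IM24h library 2, the lowest of its group, both were called higher at IM24h (1.44, adjusted p = 0.0124, and 1.48, adjusted p = 0.0149), and without IM72h library 1 *Hspa1b* was called higher at IM72h (0.66, adjusted p = 0.0293).

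In the glial pulldown the same genes were low throughout. *Hspa1a* stood at 3.91, 7.17 and 9.49 CPM in naïve mice and 12.1, 22.4, 12.4 and 8.48 CPM at IM3h, and *Hspa1b* at 1.89, 9.53 and 4.92 CPM and 6.22, 20.7, 7.402 and 0.2796 CPM. The groups overlapped for both genes, and neither difference was called by edgeR's quasi-likelihood test (log2 fold change 1.07 ± 0.499 SE, adjusted p = 0.194 for *Hspa1a* and 0.73 ± 0.969 SE, adjusted p = 0.702 for *Hspa1b*). The *Hspa1b* value rested on IM3h library 2, without which it was -0.19. The change of *Hspa1a* at IM3h was smaller in the pulldown than in total *ME* RNA, and the difference on the log2 scale, pulldown minus total *ME* RNA, was -3.98 ± 0.585 SE, adjusted p = 0.00292 in edgeR's test of the interaction of fraction and time. It was the only one of the 10 members called in this test, a call made for 0.959% of all genes as a larger and 0.698% as a smaller change in the pulldown. For *Hspa1b* the difference was -4.11 ± 1.06 SE, adjusted p = 0.0631, and it was called without IM3h *RiboTag* library 2 (-5.02, adjusted p = 0.0228) or library 4 (-3.70, adjusted p = 0.0136) and in DESeq2 (-4.18, adjusted p = 0.0443). In naïve mice the 2 genes together made up 27.0 ± 10.1 CPM (SD, n = 3) in total *ME* RNA and 12.3 ± 5.74 CPM (SD, n = 3) in the pulldown, and at IM3h 865 ± 343 CPM (SD, n = 3) and 22.5 ± 14.6 CPM (SD, n = 4). Summed as 1 gene they rose at IM3h in total *ME* RNA by 5.02 ± 0.359 SE (adjusted p = 6.10e-06) and stood at 0.93 ± 0.539 SE (adjusted p = 0.309) in the pulldown, and the difference between fractions was -4.03 ± 0.683 SE (adjusted p = 0.00782).

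Later, *Hspa1a* was at or near 0 in most pulldown libraries. It was at 3.02, 0, 0 and 0 CPM at IM24h and 0, 0.443, 0 and 0 CPM at IM72h, so that all libraries of both time points lay below the lowest naïve library. Over the 4 IM72h libraries there was 1 count, against 176 counts over the 3 naïve libraries, a ratio of scaled counts of 0.0207 with an exact 95% interval of 0.00052 to 0.117 that covers counting error only. edgeR's quasi-likelihood test called this fall (log2 fold change -5.47 ± 1.25 SE, adjusted p = 0.0173), a value that depends on how 0 counts are handled. The call was lost without the filter on low counts (adjusted p = 0.152) and in 1 fit over all 4 groups (adjusted p = 0.0831), and on coding transcripts alone the gene was not among those tested. The interaction test also called it lower than the change in total *ME* RNA (-5.95 ± 1.201 SE, adjusted p = 0.00248). *Hspa1b* did not follow. It was at 1.13, 2.06, 0 and 6.49 CPM at IM24h and 0, 0.885, 21.3 and 0 CPM at IM72h, where a single library held nearly all of it. Summed as 1 gene the pair was not called at IM72h in the pulldown (-1.07, adjusted p = 0.886) or in the difference between fractions (-1.95, adjusted p = 0.496). The last 500 bases of the 2 transcripts, where 3′ end reads fall, shared 0 of 451 windows of 50 bases with each other or with any other gene. The authors' estimated counts of the pair were nevertheless not whole in many libraries and could add up to a whole number (309.4 and 194.6 at IM24h library 1 of total *ME* RNA), so that some reads may have been split between them.

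**Figure D2:**
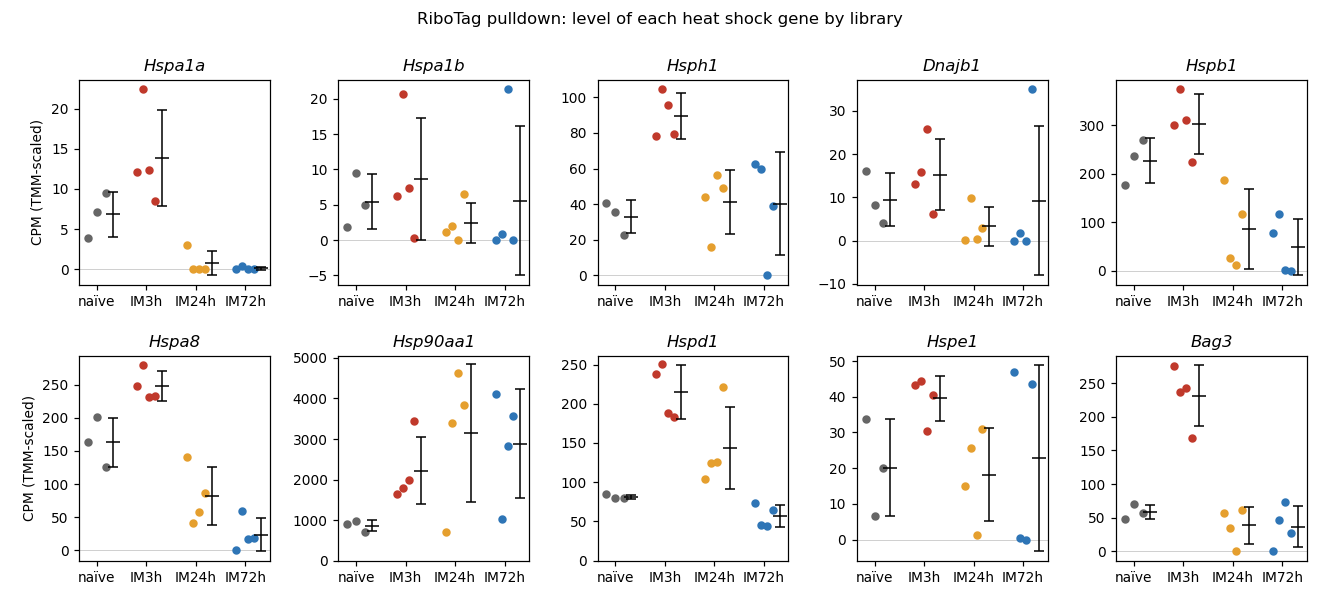
Level of each member in every library of the glial *RiboTag* pulldown, in CPM on a linear axis that differs between panels, for naïve mice, IM3h, IM24h and IM72h. Points are libraries and bars with lines are the mean and SD of 3 or 4 libraries, a line below 0 being only a wide SD. *Bag3*, *Hsph1* and *Hspd1* were higher in every IM3h library than in every naïve library.

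Of the 3 HSP70 cochaperones, *Bag3* and *Hsph1* were called higher at IM3h in both fractions and *Dnajb1* in total *ME* RNA, and none of their 3 differences between fractions was called. Their levels are in the plots of both fractions by library. *Bag3* (chr7:128523616-128546981, plus strand), a nucleotide exchange factor that links HSP70 to small heat shock proteins and to autophagy, rose in both. In the pulldown it stood at 48.6, 70.2 and 57.1 CPM in naïve mice and 276, 238, 244 and 169 CPM at IM3h (log2 fold change 2.03 ± 0.262 SE, adjusted p = 0.000499), and in total *ME* RNA at 57.7, 44.5 and 59.7 CPM and 191, 282 and 263 CPM (log2 fold change 2.22 ± 0.163 SE, adjusted p = 6.82e-06). All IM3h libraries lay above all naïve libraries in both fractions, and the difference between the 2 changes was -0.10 ± 0.304 SE, adjusted p = 0.937. *Bag3* fell again from IM3h to IM24h in total *ME* RNA (-1.75 ± 0.201 SE, adjusted p = 0.000321), to 70.2, 90.1, 70.98 and 52.8 CPM, which overlapped with naïve mice and was called only without IM24h library 4 (0.50, adjusted p = 0.0386). At IM72h it was at 113, 101, 96.7 and 77.6 CPM, above every naïve library (log2 fold change 0.81 ± 0.153 SE, adjusted p = 0.0009997). In the pulldown it stood at 56.7, 34.6, 0.892 and 61.6 CPM at IM24h and 0, 46.9, 72.7 and 27.5 CPM at IM72h, each with 1 library near or at 0 and the group overlapping with naïve mice, and neither was called.

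*Hsph1* (chr5:149614287-149636376, minus strand) encodes HSP110, an HSP70 relative that exchanges the nucleotide of HSP70 and helps to dissolve aggregates. In the pulldown it stood at 40.4, 35.8 and 22.5 CPM in naïve mice and 78.2, 105, 95.7 and 79.1 CPM at IM3h (log2 fold change 1.496 ± 0.281 SE, adjusted p = 0.004904). Total *ME* RNA went from 80.8, 82.3 and 92.7 CPM to 217, 333 and 307 CPM (log2 fold change 1.79 ± 0.154 SE, adjusted p = 1.95e-05). The groups did not overlap in either fraction, and the difference between the changes was -0.20 ± 0.313 SE, adjusted p = 0.857. The *ME* level then went below that of naïve mice, with 59.97, 64.6, 58.7 and 43.4 CPM at IM24h and 29.7, 38.3, 42.7 and 44.2 CPM at IM72h. Both falls were called (-0.59 ± 0.166 SE, adjusted p = 0.0227 at IM24h and -1.17 ± 0.143 SE, adjusted p = 5.23e-05 at IM72h). The first was lost when naïve library 1, 2 or 3 was left out (adjusted p = 0.0643, 0.0548 and 0.107), and with scaling to the library total its value was 0.043. The step from IM24h to IM72h was called as well (-0.59 ± 0.173 SE, adjusted p = 0.0204), but not without IM72h library 1 or 2 (adjusted p = 0.0608 and 0.0650). In the pulldown the levels were 44.1, 15.7, 56.6 and 48.9 CPM at IM24h and 62.6, 59.8, 0 and 38.7 CPM at IM72h, overlapping with naïve mice.

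*Dnajb1* (chr8:83608193-83612653, plus strand) encodes HSP40, the J-domain protein that loads clients onto inducible HSP70. Its *ME* level went from 15.9, 13.8 and 14.99 CPM in naïve mice to 67.8, 105 and 133 CPM at IM3h, with no overlap (log2 fold change 2.81 ± 0.221 SE, adjusted p = 1.06e-05). It fell again from IM3h to IM24h (-2.66 ± 0.435 SE, adjusted p = 0.00186), to 8.74, 6.89, 19.2 and 27.8 CPM, and was at 10.6, 13.2, 11.4 and 18.4 CPM at IM72h, both around the naïve values. In the pulldown naïve and IM3h libraries overlapped, at 16.03, 8.18 and 3.98 CPM and 13.1, 15.9, 25.8 and 6.06 CPM, and the difference was not called (log2 fold change 0.75 ± 0.577 SE, adjusted p = 0.462). The difference between the changes, pulldown minus total *ME* RNA, was -1.98 ± 0.648 SE, adjusted p = 0.145. *Dnajb1* was then in the pulldown at 0.126, 9.89, 0.446 and 2.86 CPM at IM24h and 0, 1.77, 0 and 34.97 CPM at IM72h, where 1 library held nearly all of it, and neither time point was called.

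*Hspa8* (chr9:40800984-40810087, plus strand) is the constitutive HSP70 of the cytosol, which also strips clathrin from vesicles. Levels in total *ME* RNA were 391, 411 and 432 CPM in naïve mice and 898, 993 and 1084 CPM at IM3h (log2 fold change 1.32 ± 0.1098 SE, adjusted p = 1.53e-05). It fell from IM3h to IM24h (-0.97 ± 0.2196 SE, adjusted p = 0.00932), to 455, 325, 639 and 552 CPM, and was at 272, 406, 401 and 521 CPM at IM72h. IM3h was above every other library, and later groups overlapped with naïve mice. With scaling to the library total the step from IM3h to IM24h was -0.16 (adjusted p = 0.589). In the pulldown *Hspa8* stood at 163, 200.7 and 126 CPM in naïve mice and 249, 279, 232 and 232 CPM at IM3h. All IM3h libraries lay above all naïve libraries, but edgeR did not call the difference (log2 fold change 0.66 ± 0.235 SE, adjusted p = 0.0894), while DESeq2 called it (0.64, adjusted p = 0.0299). Levels then went down to 141, 41.2, 57.97 and 86.4 CPM at IM24h and 0.478, 59.8, 16.5 and 18.1 CPM at IM72h, where all 4 libraries lay below naïve mice. Neither time point was called with all libraries, but IM72h was without library 1 or 2 (-2.40, adjusted p = 0.0444, and -3.94, adjusted p = 0.0389). The last 500 bases of the *Hspa8* transcript shared 81.8% of 451 windows of 50 bases with 11 other genes, mostly the pseudogene *Gm15459*, so that its counts may be split among copies.

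*Hspb1* (chr5:135887919-135889563, plus strand) encodes the small heat shock protein HSP25, which binds unfolded clients and actin filaments and is abundant in muscle. It rose in total *ME* RNA from 740.2, 675 and 926 CPM to 1515, 1787 and 1693 CPM at IM3h (log2 fold change 1.14 ± 0.136 SE, adjusted p = 0.000159). It stood at 1211, 349, 1530.0 and 1629 CPM at IM24h and 608, 1393, 1362 and 1700.0 CPM at IM72h. All IM3h libraries were above naïve mice, while IM24h and IM72h each held 1 library below and 3 above them and were not called. Without the low library of each group, IM24h library 2 and IM72h library 1, *Hspb1* was called higher (0.90, adjusted p = 0.00881, and 0.90, adjusted p = 0.000844). In 1 fit over all 4 groups the rise at IM3h had an adjusted p of 0.0780. In the pulldown *Hspb1* was at 177, 236 and 269 CPM in naïve mice and 301, 374, 311 and 225 CPM at IM3h (log2 fold change 0.47 ± 0.254 SE, adjusted p = 0.269), overlapping groups. At IM24h it was at 187, 25.97, 12.04 and 117.7 CPM and at IM72h at 77.4, 117, 0.9698 and 0.624 CPM, where 2 libraries held nearly none and the other two stayed below the naïve range, and neither time point was called. Its last 500 bases shared 54.5% of windows with the pseudogene *Hsp25-ps1*.

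*Hspd1* and *Hspe1* (chr1:55077835-55088243, minus strand, and chr1:55088132-55091307, plus strand) encode HSP60 and HSP10, the barrel and the lid of the mitochondrial chaperonin, and share the promoter block in capitals above. In the pulldown *Hspd1* rose from 84.3, 79.3 and 79.9 CPM in naïve mice to 238, 250.4, 189 and 183 CPM at IM3h (log2 fold change 1.46 ± 0.229 SE, adjusted p = 0.00176). *Hspe1* stood at 33.8, 6.61 and 20.04 CPM and 43.2, 44.3, 30.4 and 40.4 CPM, overlapping groups with no call (log2 fold change 1.02 ± 0.446 SE, adjusted p = 0.163). The 2 genes parted in total *ME* RNA. *Hspd1* stood at 129, 126 and 139 CPM in naïve mice, 226, 267 and 272 CPM at IM3h, 312, 349.7, 287 and 183 CPM at IM24h and 208, 204, 202 and 168 CPM at IM72h. Every library after IM was above every naïve library, and all 3 rises were called (1.01 ± 0.107 SE, adjusted p = 7.66e-05 at IM3h, 1.10 ± 0.214 SE, adjusted p = 0.00392 at IM24h and 0.54 ± 0.116 SE, adjusted p = 0.00213 at IM72h). *Hspe1* stood at 71.5, 54.2 and 66.6 CPM in naïve mice and 70.9, 82.96 and 93.8 CPM at IM3h, a small rise (log2 fold change 0.41 ± 0.137 SE, adjusted p = 0.0429). On this scale the lowest IM3h library lay just under the highest naïve library, and the call held only when IM3h library 1 was left out, with adjusted p = 0.0699 to 0.140 without each of the other 5 libraries in turn. It was also lost with scaling to the library total (0.14, adjusted p = 0.594) and in 1 fit over all 4 groups (0.36, adjusted p = 0.246). The same held without a filter on low counts, without rRNA genes and on coding transcripts (adjusted p = 0.0600 to 0.0720). *Hspe1* was then at 37.5, 38.9, 43.99 and 48.5 CPM at IM24h and 29.7, 26.6, 28.8 and 48.4 CPM at IM72h, below every naïve library, and both falls were called (-0.61 ± 0.167 SE, adjusted p = 0.0209 and -0.97 ± 0.201 SE, adjusted p = 0.00172). With scaling to the library total the fall at IM72h was -0.38 (adjusted p = 0.152). The fall at IM24h was lost without naïve library 1 or 3 or IM24h library 1 (adjusted p = 0.112, 0.0890 and 0.0506) and was 0.021 with scaling to the library total. The last 500 bases of *Hspe1* shared 53.2% of windows with 6 other genes.

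After IM24h *Hspd1* went down in total *ME* RNA (-0.57 ± 0.192 SE, adjusted p = 0.0364), a call lost without any of 7 of the 8 libraries (adjusted p = 0.0630 to 0.0995) or without a filter on low counts (adjusted p = 0.0694). In the pulldown it was at 103, 125, 126 and 221 CPM at IM24h, above naïve mice in all 4 libraries, and at 73.1, 45.6, 43.6 and 64.9 CPM at IM72h, below them in all 4. Neither was called against naïve mice. The IM72h change of *Hspd1* was smaller in the pulldown than in total *ME* RNA (-1.35 ± 0.449 SE, adjusted p = 0.0436), where a smaller change in the pulldown was called for 21.1% of all genes and the median difference over all genes was -0.98. This call was lost without any naïve library of either fraction or any IM72h library of total *ME* RNA (adjusted p = 0.0620 to 0.105). It was also lost with RLE scaling, without rRNA genes and on coding transcripts (adjusted p = 0.175, 0.0931 and 0.0970). *Hspe1* in the pulldown was at 14.95, 25.6, 1.34 and 30.9 CPM at IM24h and 46.8, 0.443, 0 and 43.7 CPM at IM72h, from 0 to above the naïve range.

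*Hsp90aa1* (chr12:110690605-110702728, minus strand) encodes the stress-inducible cytosolic HSP90. It stood in total *ME* RNA at 832, 909 and 827 CPM in naïve mice, 2370.0, 2602 and 3323 CPM at IM3h, 1184, 1132, 1141 and 688 CPM at IM24h and 1508, 1288, 1360.0 and 1421 CPM at IM72h. IM3h was above all others (log2 fold change 1.74 ± 0.1398 SE, adjusted p = 1.23e-05), IM24h reached from below to above the naïve values and was called only without library 4 (0.42, adjusted p = 0.0344), and IM72h lay above every naïve library (log2 fold change 0.67 ± 0.115 SE, adjusted p = 0.000513). The step from IM3h to IM24h was called (-1.38 ± 0.218 SE, adjusted p = 0.00156). In the pulldown it stood at 907, 964 and 709 CPM in naïve mice, 1647, 1793, 1991 and 3441 CPM at IM3h, 715, 3393, 4618 and 3848 CPM at IM24h and 4115, 1021, 2822 and 3573 CPM at IM72h. All IM3h and IM72h libraries were above all naïve libraries on this scale, while IM24h library 1 lay within them. On the scale of the 2-group fit, IM72h library 2 overlapped with naïve mice. The rise was called at IM3h (log2 fold change 1.42 ± 0.308 SE, adjusted p = 0.0105) and at IM72h (log2 fold change 1.75 ± 0.461 SE, adjusted p = 0.0309). The first was lost without naïve library 3 (adjusted p = 0.0656). The second was lost without naïve library 1, 2 or 3 or IM72h library 1 or 4 (adjusted p = 0.0599 to 0.119), in DESeq2 (adjusted p = 0.0740) and without a filter on low counts (adjusted p = 0.148). With scaling to the library total its value was -0.036.

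Most counts of *Hsp90aa1* did not stand on its coding transcripts in any library but IM24h library 4 of total *ME* RNA, whereas for each of the other members the median share on coding transcripts was at least 77.7% in every group. Among these, single pulldown libraries with few counts were far lower, *Hspa8* at 24.1% in IM24h library 2 and 11.5% in IM72h library 3 and *Hspe1* at 21.4% in IM72h library 4. The share on protein-coding transcripts was 27.8% to 35.5% in naïve, 26.8% to 31.3% at IM3h, 40.8% to 60.6% at IM24h and 16.4% to 23.8% at IM72h in total *ME* RNA. In the pulldown it was 20.7% to 24.9%, 4.59% to 24.1%, 2.31% to 13.3% and 0% to 3.85% at the same times. The remaining counts stood mainly on *Hsp90aa1-204* and *Hsp90aa1-206*, 2 short transcripts annotated as retained introns, chr12:110692709-110693180 and chr12:110694175-110695672 on the minus strand (GENCODE M21, mm10). Of the 325 exonic bases of *Hsp90aa1-204*, 312 are also exonic in the coding *Hsp90aa1-201*, and of the 924 bases of *Hsp90aa1-206*, 824 are, so that a read in them may come from any of the transcripts. The last 120 bases of *Hsp90aa1-206* are shown because libraries primed with oligo dT start at runs of A, and capitals mark stretches with at least 12 A in 15 bases.
*Hsp90aa1-206*, last 120 bases: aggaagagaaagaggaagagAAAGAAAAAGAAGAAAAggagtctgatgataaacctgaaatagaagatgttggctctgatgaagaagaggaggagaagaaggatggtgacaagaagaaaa

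The A-rich stretch ended 83 bases before the end of this transcript. Windows of 15 bases with at least 12 A numbered 3 in *Hsp90aa1-206*, 0 in *Hsp90aa1-204* and 6 in the coding *Hsp90aa1-201*. In the pulldown at IM3h the mean of *Hsp90aa1-204* was 1026 CPM and that of *Hsp90aa1-206* was 909 CPM. The part of A-rich stretches in the counts was not tested. The mean level of the coding *Hsp90aa1-201* in the pulldown was 195.4 CPM in naïve mice, 278.5 CPM at IM3h, 90.9 CPM at IM24h and 9.83 CPM at IM72h, whereas *Hsp90aa1-206* went from 497.9 CPM to 909, 2466 and 2561 CPM. The *ME* level of *Hsp90aa1-201* went from 267.8 CPM to 786, 495.1 and 285.1 CPM. With protein-coding transcripts only, the pulldown change of *Hsp90aa1* was 0.53 ± 0.320 SE (adjusted p = 0.344) at IM3h and -4.36 ± 1.79 SE (adjusted p = 0.169) at IM72h, opposite in sign to the called rise. In total *ME* RNA it was 1.58 ± 0.115 SE (adjusted p = 1.35e-05) at IM3h, 0.94 ± 0.165 SE (adjusted p = 0.00272) at IM24h and 0.07 ± 0.127 SE (adjusted p = 0.678) at IM72h. The rise at IM3h in total *ME* RNA was thus called on either count, a rise at IM24h was called there on coding transcripts alone, and in the pulldown the rises at IM3h and IM72h were called only with the short transcripts counted.

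**Figure D3:**
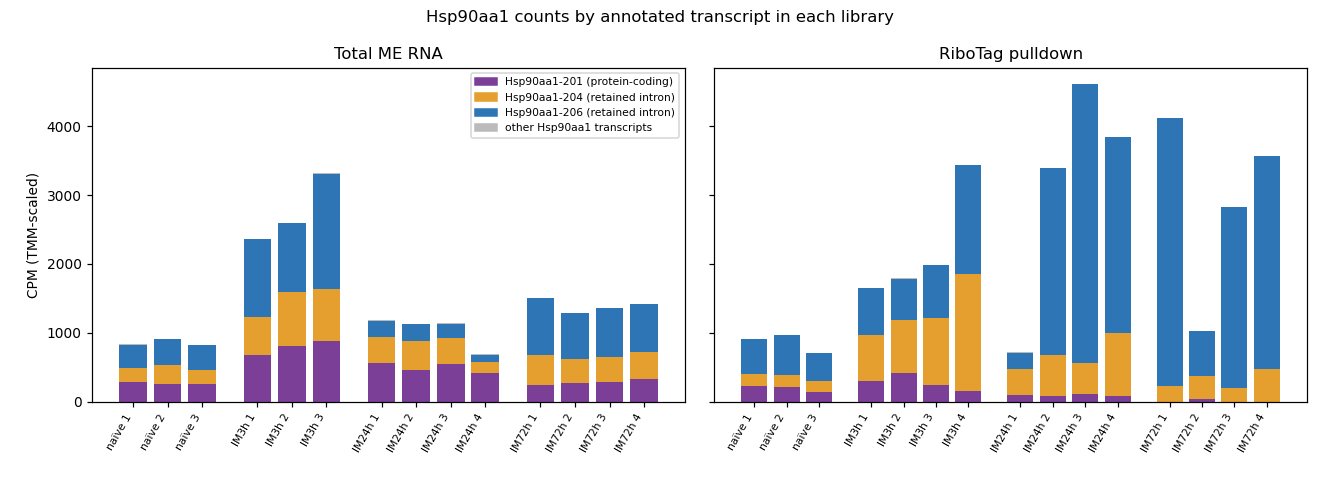
Counts of *Hsp90aa1* in every library split by transcript, in CPM, for both fractions and all 4 groups. The share on protein-coding transcripts is 16.4% to 60.6% in total *ME* RNA and falls to 3.85% or less in the pulldown at IM72h.

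The plot of *Hsp90aa1* by transcript shows that the high pulldown libraries at IM24h and IM72h are made up mostly of *Hsp90aa1-206*.

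Between the first 2 time points most members went down in total *ME* RNA. From IM3h to IM24h 8 of 10 fell, against 13.4% of all genes called lower and 14.2% higher, and *Hspb1* and *Hspd1* were not called. The falls of *Hspa8* and *Hspe1* were lost with scaling to the library total (-0.16 and -0.12). From IM24h to IM72h 2 fell and 0 rose, against 19.9% and 18.6% of all genes. In the pulldown 0 of 10 were called from IM3h to IM24h by edgeR's quasi-likelihood test (0.915% of genes lower, 0.965% higher). At an unadjusted p under 0.05, 5 were lower, namely *Bag3*, *Hspa8*, *Hspa1a*, *Hspb1* and *Hsph1* (7.86% of all genes lower, 7.52% higher). DESeq2 called 3 of these lower, *Bag3*, *Hspa1a* and *Hspa8* (3.86% lower, 4.35% higher). edgeR called *Hspa1a* and *Hspa8* without IM24h library 1 and *Bag3* without IM24h library 3. From IM24h to IM72h 7 members had enough counts to be tested in the pulldown and 0 were called by edgeR (0% of 9281 genes), 0 at an unadjusted p under 0.05 (1.4% of genes higher, 4.79% lower) and 0 by DESeq2 (0.517% and 0.625%).

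**Figure D4:**
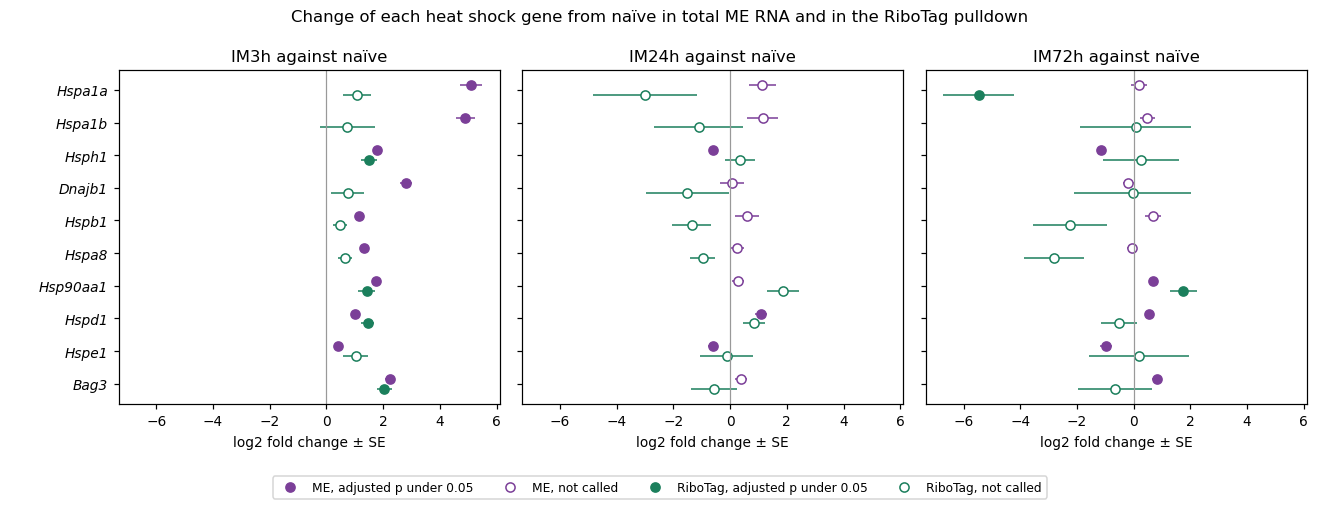
Log2 fold change from naïve mice with its SE for each member at IM3h, IM24h and IM72h, purple for total *ME* RNA and green for the *RiboTag* pulldown, filled where the adjusted p was under 0.05. At IM3h all 10 purple and 4 green points are filled, and the IM72h pulldown value of *Hspa1a* rests on 1 count.

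At IM3h the pulldown changes ranged from 0.47 to 2.03 and those in total *ME* RNA from 0.41 to 5.11, as the plot of changes from naïve mice shows. The difference between the fractions was within 0.8 of 0 for *Bag3*, *Hsph1*, *Hsp90aa1*, *Hspa8*, *Hspb1*, *Hspd1* and *Hspe1* (adjusted p = 0.301 to 0.937), which does not show that these changed alike. At IM24h 0 of 10 differences were called by edgeR (0.274% of genes with a larger and 0.263% with a smaller change in the pulldown), 1 was larger and 2 smaller at an unadjusted p under 0.05 (6.14% and 7.32% of genes), and DESeq2 called 1 smaller, *Hspa1a* (2.31% larger, 2.63% smaller). Without *RiboTag* IM24h library 1 edgeR called *Hspa1a*, *Hspa8* and *Hsp90aa1*. At IM72h 2 were called, *Hspa1a* and *Hspd1*, given above, against 2.15% of genes with a larger and 21.1% with a smaller change in the pulldown. Leaving out *RiboTag* IM72h library 1 added *Hspa8*, library 2 *Hspa8* and *Hsp90aa1*, library 3 *Hspa1b* and *Hsph1*, and library 4 *Dnajb1*.

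The study itself used an unadjusted p under 0.05 with a change over 2-fold. By this threshold 9 members, all but *Hspe1*, were higher at IM3h in total *ME* RNA (11.3% of genes higher, 7.14% lower) and 5, now with *Hspe1*, in the pulldown (11.8% and 8.86%). At IM24h *Hspa1a* and *Hspd1* were higher in total *ME* RNA (12.1% and 11.3%) and *Hsp90aa1* in the pulldown (6.62% and 5.85%). At IM72h *Hsph1* was lower in total *ME* RNA (17.2% and 15.6%), and in the pulldown *Hsp90aa1* was higher and *Hspa1a* and *Hspa8* lower (3.1% and 19.4%). The coding *Hsp90aa1-201* went the other way in the pulldown, with means of 195.4 CPM in naïve mice, 90.9 CPM at IM24h and 9.83 CPM at IM72h. From IM3h to IM24h 6 members were lower in total *ME* RNA (12.2% and 10.5%) and 5 in the pulldown (6.95% and 7.11%), and from IM24h to IM72h 0 in either (12.7% and 12.5%, 1.38% and 4.78%). The change in the pulldown was smaller than in total *ME* RNA for *Hspa1a*, *Hspa1b* and *Dnajb1* at IM3h (5.99% of genes larger, 5.18% smaller), for *Hspa1a* and *Hspa8* at IM24h, where that of *Hsp90aa1* was larger (5.85% and 7.22%), and for *Hspa1a*, *Hspa8* and *Hspd1* at IM72h (4.65% and 28.5%).

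Across the wider chaperone network, 96 further genes in 8 lists were counted. At IM3h 38 of the 91 tested rose and 4 fell in total *ME* RNA, and 16 rose and 4 fell in the pulldown, with median log2 fold changes of 0.32 and 0.41. Over all genes the shares called were 19.3% higher and 13.4% lower in total *ME* RNA and 8.86% and 4.44% in the pulldown. With scaling to the library total the *ME* counts were 13 and 7, and in 1 fit over all 4 groups 23 and 3. In the pulldown that single fit called 0 of the lists, and coding transcripts alone gave 10 and 3. The *ME* rises included 10 of 19 HSP90 family members and cochaperones, 10 of 21 J-domain proteins, 8 of 13 subunits of the cytosolic chaperonin CCT and prefoldin, 4 of 10 HSP70 and HSP110 relatives and 3 of 5 small heat shock proteins. Among genes called with groups that did not overlap, the largest rises in total *ME* RNA were of *Dnajb9* (2.57 ± 0.207 SE, adjusted p = 1.23e-05), a J-domain protein of the endoplasmic reticulum, *Fkbp5* (2.44 ± 0.152 SE, adjusted p = 2.35e-06), an HSP90 cochaperone induced by glucocorticoids, and *Hspa5* (2.003 ± 0.125 SE, adjusted p = 2.39e-06), the HSP70 of the endoplasmic reticulum. The largest falls were those of *Hspbp1* (-0.58 ± 0.176 SE, adjusted p = 0.0285), *Dnajb14* (-0.52 ± 0.114 SE, adjusted p = 0.00604) and *Dnajc19* (-0.47 ± 0.1305 SE, adjusted p = 0.0193). The call of *Hspbp1* was lost in DESeq2 (adjusted p = 0.0569) and in 1 fit over all 4 groups (adjusted p = 0.0775), and without naïve library 2 or 3 or IM3h library 1 or 3 (adjusted p = 0.0515 to 0.0805), and that of *Dnajc19* without naïve library 2 or IM3h library 3 (adjusted p = 0.0524 and 0.0541).

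In the pulldown at IM3h the rises were spread over HSP70 relatives (4 of 10), HSP90 cochaperones (4 of 19), J-domain proteins (4 of 21) and CCT and prefoldin (4 of 13). By the same rule the largest were *Fkbp5* (2.49 ± 0.308 SE, adjusted p = 0.000389), *Hspa9* (1.80 ± 0.268 SE, adjusted p = 0.00122), the HSP70 of mitochondria, and *Dnaja1* (1.53 ± 0.268 SE, adjusted p = 0.00322), a J-domain partner of cytosolic HSP70. *Fkbp5* stood at 7.67 ± 0.920 CPM (SD) in the 3 naïve libraries and at 41.7 ± 6.03 CPM (SD) in the 4 at IM3h. Of 5 further small heat shock proteins tested, 3 were called lower and 0 higher by edgeR, with 3 lower and 1 higher at an unadjusted p under 0.05, whereas the member *Hspb1* stood at 0.47. Called lower were among them *Hspb2* (-2.54 ± 0.763 SE, adjusted p = 0.0464) and *Hspb7* (-1.81 ± 0.267 SE, adjusted p = 0.00119), which are expressed in muscle. Smooth muscle markers summed to 9668 to 14360 CPM in naïve and 3097 to 7228 CPM in IM3h pulldown libraries, and their part in these falls was not tested. *Dnajc19*, a mitochondrial J-domain protein, fell as well (-1.90 ± 0.461 SE, adjusted p = 0.0179). *Hspb2* was not called with scaling to the library total or on coding transcripts (adjusted p = 0.0504 and 0.0580) or without any library other than IM3h library 4 (adjusted p = 0.0742 to 0.165), nor *Dnajc19* without any naïve library or IM3h library 2 (adjusted p = 0.0514 to 0.0789), and 13 and 11 genes of the lists were called without naïve library 2 and 3.

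At IM24h 23 of 91 tested genes of these lists rose and 11 fell in total *ME* RNA, against 15.6% and 13.4% of all genes. Scaling to the library total gave 53 and 3. The rises were led by *Hspb7* (2.61 ± 0.205 SE, adjusted p = 6.09e-05), *Hspa5* (1.87 ± 0.208 SE, adjusted p = 0.000245) and *Fkbp5* (1.83 ± 0.218 SE, adjusted p = 0.000324). *Hspb6* (-2.16 ± 0.411 SE, adjusted p = 0.00355), a small heat shock protein of smooth muscle, *Dnajc6* (-1.997 ± 0.6097 SE, adjusted p = 0.0325), the auxilin of neurons, and *Unc45a* (-1.61 ± 0.219 SE, adjusted p = 0.000604), a myosin chaperone, fell the most. *Dnajc6* was not called without naïve library 1 or 3 or IM24h library 2 (adjusted p = 0.0540 to 0.163) or with scaling to the library total (adjusted p = 0.0979), and 20, 22 and 19 genes of the lists were called without naïve library 1, 2 and 3. In the pulldown edgeR called 0 of 92 at IM24h, with 12 higher and 4 lower at an unadjusted p under 0.05. DESeq2 called 4 higher and 2 lower. edgeR called 2 higher and 1 lower without a filter on low counts, and 7 in all without IM24h library 1. At IM72h 28 of 92 rose and 31 fell in total *ME* RNA, shares near the 29.3% and 28.3% of all genes. Scaling to the library total gave 52 and 3. *Unc45b* (1.93 ± 0.316 SE, adjusted p = 0.000373), the myosin chaperone of striated muscle, *Hspb8* (1.77 ± 0.204 SE, adjusted p = 3.38e-05), which works with BAG3, and *Stub1* (1.39 ± 0.251 SE, adjusted p = 0.000737), a ubiquitin ligase of HSP70 clients, rose the most. *Dnajc6* (-2.78 ± 0.428 SE, adjusted p = 0.000244), *Bag2* (-1.26 ± 0.299 SE, adjusted p = 0.00403) and *Cdc37* (-1.16 ± 0.131 SE, adjusted p = 3.10e-05), which hands kinases to HSP90, fell the most, and *Bag2* was not called with scaling to the library total (-0.69, adjusted p = 0.0769). In the pulldown 2 of 89 rose and 5 fell at IM72h, against 1.05% and 15.1% of all genes. DESeq2 called 1 higher and 12 lower, library total scaling 0 and 13, and edgeR without a filter on low counts 0, where those named here had adjusted p = 0.148 to 0.149. The rises were those of *Hsp90b1* (1.56 ± 0.377 SE, adjusted p = 0.0216), the HSP90 of the endoplasmic reticulum, and *Hsp90ab1* (1.33 ± 0.339 SE, adjusted p = 0.0272), the constitutive HSP90 of the cytosol. *Dnajb11* and *Pam16* stood at 10.7 ± 2.02 CPM and 8.53 ± 1.504 CPM (SD) in the 3 naïve libraries and at 0 in all 4 libraries of IM72h (adjusted p = 0.0246 and 0.0173). *Trap1*, an HSP90 of mitochondria, fell from 13.2 ± 5.78 CPM to 0.156 ± 0.312 CPM (SD over the same libraries, adjusted p = 0.0417). Leaving out any naïve library took away the calls of *Hsp90b1*, *Hsp90ab1*, *Dnajb11* and *Trap1* (adjusted p = 0.0503 to 0.159). *Hsp90ab1* was also lost in DESeq2, in 1 fit over all 4 groups and on coding transcripts (adjusted p = 0.133, 0.0682 and 0.274). With scaling to the library total *Hsp90b1* and *Hsp90ab1* were at -0.21 and -0.50. *Hsp90ab1* was lost too without IM72h library 1 or 4 and *Trap1* without IM72h library 1 (adjusted p = 0.0509 to 0.0524). Genes of the lists called at IM72h numbered 1 to 3 without a naïve library and 11 to 20 without IM72h library 2, 3 or 4.

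As a description, correlations among the members were higher in total *ME* RNA than in the pulldown. Over the 45 pairs of members the median Pearson r of log2 CPM was 0.69 over the 14 libraries of total *ME* RNA (range -0.15 to 0.99) and 0.40 over the 15 pulldown libraries (range -0.59 to 0.79), where libraries share their group, depth and rRNA content. The genes whose course was most like the mean standardised log2 CPM of the 10 members in total *ME* RNA, among 17909 genes, were *Rcan1* (r = 0.984), *Slc2a1* (r = 0.984), *Arf6* (r = 0.980), *Gbp2* (r = 0.974) and *Cish* (r = 0.972). In the pulldown, among 17230 genes, they were *Tiparp* (r = 0.959), *Errfi1* (r = 0.945), *Pprc1* (r = 0.931), *Sema7a* (r = 0.930) and *Gm6501* (r = 0.928).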

How the data were processed

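In the protocol, small bowel *ME* was lysed, a part of the lysate was kept as total RNA, and tagged ribosomes were pulled down with an antibody to HA. By the labels, however, the total *ME* and pulldown libraries of naïve mice and IM3h came from different mouse lines. The authors made QuantSeq 3′ end libraries, read as single ends, trimmed them with cutadapt, aligned them to mm10 with STAR and quantified Ensembl transcripts in Partek Flow. The deposited values used here are the authors' estimated counts per transcript (*RiboTag*) or per gene (total *ME*), in 5 tables, not scaled for library size. Between 26.5% and 58.2% of all values in a table were not whole within 0.001, and features with a total below 10 are not listed. The 4 tables of the authors' comparisons (group means, p-values, ratios, fold changes) were not used, and 0 columns of other samples were present. Groups came from the group entry of each line of the tables, library numbers follow the order of names within a group, and 29 libraries were used where the labels list 30, since 3 of 4 naïve *RiboTag* libraries are in the tables.

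Counts of all transcripts with the same gene symbol were added up, then rounded to whole numbers. edgeR 4.0.16 (R 4.3.3, limma 3.58.1) was used with TMM scaling, filterByExpr and the two-sided quasi-likelihood test, with 2 groups per fit in 6 comparisons with naïve mice and 4 of successive time points, and with the interaction of fraction and time in 3 tests of the difference between fractions. A call is a Benjamini-Hochberg adjusted p under 0.05 over all genes tested. The p-values set a difference between group means against the spread between these libraries, which edgeR estimates with the help of all genes tested. Levels are CPM scaled by TMM over all libraries of a fraction, and the scripts were tested on simulated data. Alternatives were DESeq2 1.42.0, other scalings and filters, the study's threshold, leaving out single libraries, and coding transcripts only, the last chosen after seeing the data. All 10 members were considered in every comparison. Of the 8 chaperone lists (96 genes), up to 3 largest rises and 3 largest falls from naïve mice are named, among genes called with groups that do not overlap. The 5 genes most like the members are ranked by Pearson r to the mean standardised log2 CPM (prior count 2) of the 10. Members and lists were chosen with earlier results of these data known, so that their counts are descriptions. Positions are those of GENCODE M21 for mm10, and sequences those of RefSeq or, for transcripts, GENCODE. Values were computed with Python 3.11.15, pandas 2.3.3 and scipy 1.17.1. Intervals and floors cover counting error only.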

Additional observations from a re-analysis of the deposited data

Results flagged for a closer look

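In 7 of 50 groups of 4 libraries with differing values, 1 library lay apart from the rest by Dixon's criterion at the 95% level, where chance gives about 1 group in 20 for values that vary freely. That rate does not apply to the 2 groups of *Hspa1a*, in which the gap is the whole range because the other three libraries are at 0. In the pulldown these were *Hspa1a* at IM24h, with 3.016 CPM in library 1 and 0 in the other three, *Hspa1a* at IM72h, with 0.4427 CPM in library 2 and 0 in the other three, *Hspa1b* at IM72h, with 21.34 CPM in library 3 and at most 0.885 CPM in the others, and *Dnajb1* at IM72h, with 34.97 CPM in library 4 and at most 1.77 CPM in the others. In total *ME* RNA they were *Hsp90aa1* at IM24h, lowest in library 4 with 688.1 CPM against at least 1132 CPM, *Hspd1* at IM72h, lowest in library 4 with 168.0 CPM against at least 201.5 CPM, and *Hspe1* at IM72h, highest in the same library with 48.42 CPM against at most 29.7 CPM.

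The change from naïve mice differed between the fractions for *Hspa1a* at IM3h (-3.98, pulldown minus total *ME* RNA on the log2 scale), *Hspa1a* at IM72h (-5.95) and *Hspd1* at IM72h (-1.35), each by the interaction test of edgeR with an adjusted p under 0.05. The *Hspa1a* value at IM72h rests on 1 pulldown count, and summed with *Hspa1b* it was not called (-1.95, adjusted p = 0.496). The *Hspd1* call was lost without any naïve library (adjusted p = 0.0620 to 0.105), and 21.1% of all genes had a smaller change called in the pulldown at IM72h. The pulldown libraries came from the *Sox10*-driven line and the total *ME* libraries of naïve mice and IM3h from the *Gfap*-driven line, so that fraction and line cannot be told apart in the IM3h difference. The total *ME* libraries of IM72h came from the *Sox10*-driven line, so that within total *ME* RNA the IM72h change and the line cannot be told apart either.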

How the results depend on the processing

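Counted were the changes of all members at IM3h from naïve mice, their differences between fractions at IM3h, and from the other comparisons only the changes called as reported, so that calls gained elsewhere are not included. Under other settings than those reported, leaving out libraries aside, 364 kept their sign and their side of the threshold and 2 became called. The call was lost with the same sign for 23, and 4 changed sign, which lost the call as well. With libraries left out the numbers were 388, 2, 36 and 4, where the changes of sign were of values not called as reported. No paired analysis was possible because the libraries in the tables carry no replicate number.

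Numbers of members called changed by more than 1.5-fold as follows. With 1 fit over all 4 groups, 0 were called at IM3h in the pulldown in place of 4, and 4 in place of 2 from IM24h to IM72h in total *ME* RNA. With the study's threshold (unadjusted p under 0.05, over 2-fold), 1 was called in place of 0 at IM24h in the pulldown, 1 in place of 5 at IM72h in total *ME* RNA, 5 in place of 0 from IM3h to IM24h in the pulldown, 0 in place of 2 from IM24h to IM72h in total *ME* RNA, and 3 each in place of 1 and 0 for the difference between fractions at IM3h and IM24h. With DESeq2, 1 was called in place of 0 at IM24h and 1 in place of 2 at IM72h in the pulldown, 3 in place of 0 from IM3h to IM24h in the pulldown, and 2 in place of 1 and 1 in place of 0 for the differences at IM3h and IM24h. Without a filter on low counts, 1 was called at IM24h and 0 at IM72h in the pulldown, and 1 from IM24h to IM72h in total *ME* RNA. With *Hspa1a* and *Hspa1b* summed, 1 was called at IM72h in the pulldown and 1 for the difference at IM72h. With coding transcripts only, 0 and 1 were called there, *Hspa1a* not being among the genes tested in the pulldown. With RLE scaling and without rRNA genes, 1 each was called for the difference at IM72h.

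Scaling to the library total moved the median change over all genes, in log2 units, from 0.02 to 0.66 at IM24h and to 0.62 at IM72h in total *ME* RNA and from -0.11 to -0.96 and from -0.40 to -2.13 in the pulldown, and changes below these shifts have no fixed direction. It called 7 members higher and 0 lower at IM24h in total *ME* RNA in place of 1 and 2, and 5 for the difference at IM72h. All genes called at IM24h in total *ME* RNA were then 6281 higher and 720 lower in place of 2553 and 2187. Under it *Hsph1* and *Hspe1* at IM24h in total *ME* RNA were at 0.043 and 0.021, *Hsp90aa1*, *Hsp90b1* and *Hsp90ab1* at IM72h in the pulldown at -0.036, -0.21 and -0.50. With coding transcripts only, the last *Hsp90aa1* value was -4.36. The causes were not tested.

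With single libraries left out, members called ranged from 9 to 10 at IM3h, 1 to 6 at IM24h and 5 to 7 at IM72h in total *ME* RNA, from 3 to 4, 0 to 1 and 1 to 3 in the pulldown, from 8 to 8 and 0 to 4 for the steps in total *ME* RNA, from 0 to 2 and 0 to 0 for those in the pulldown, and from 1 to 2, 0 to 3 and 1 to 4 for the differences at IM3h, IM24h and IM72h. *Hspb1*, *Hspa8* and *Hspe1* share 3′ sequence with other genes, and pulldown libraries at IM72h hold the fewest counts outside rRNA. With single libraries left out the *Hspa1b* change at IM3h in the pulldown ranged from -0.19 (without IM3h library 2) to 1.42, and the *Bag3* difference at IM3h from -0.24 to 0.037.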
